A study of Mus musculus with 24 samples.

Results

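Quadriceps of mice on 1 low fat diet differed widely in slow-fibre transcripts, and its arrays are described here by that level. The 12 low fat arrays were ranked within each day by the log2 intensity of Myh7, the slow myosin heavy chain, and the 3 highest of each day (Myh7-high, 6 arrays) were set against the 3 lowest (Myh7-low, 6 arrays), of 24 arrays in the whole series. The classes were therefore chosen on a measured value, and every difference between them is a description with no test. The day of feeding was independent of the ranking, and the 12 high fat arrays took no part in it, so tests were run on these.

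All mice were male C57BL/6J, a strain the labels write as C56BL/6J. From 9 weeks of age they ate a low fat palm oil diet for 3 weeks, and were then given palm oil diets holding 10% (low fat) or 45% (high fat) of energy as fat for 3 or 28 days, by random assignment per the labels. Age was 12 weeks in the day 3 groups and 16 weeks in the day 28 groups, and so goes with the length of feeding. Quadriceps, a large thigh muscle, gave 1 array per mouse, with 6 mice for each diet and day. The mouse numbers in the labels form separate ranges for the 2 diets, so 2 sets of animals and 2 diets cannot be told apart.

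Muscle fibres are built from slow or fast versions of the same contractile parts. Slow fibres use Myh7 as the motor, Myl2 and Myl3 as its light chains, Tnni1, Tnnt1 and Tnnc1 as the troponin subunits that carry the calcium signal, and Atp2a2 as the pump that returns calcium to its store. Mouse quadriceps is mostly fast muscle in which slow fibres are few and lie in its deep part. In bulk tissue, fewer slow fibres and less slow transcript per fibre cannot be told apart.

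The upstream sequences of the 4 marker genes are shown because their transcripts rank the low fat arrays into the same classes. Each is the stretch of 250 bases before the gene's start (the farthest upstream start where RefSeq lists several), from RefSeq on GRCm38.p6. The positions are chr14:54994627-54994876, minus strand, for Myh7, chr1:135799171-135799420, plus strand, for Tnni1, chr7:4515976-4516225, minus strand, for Tnnt1, and chr9:110763428-110763677, plus strand, for Myl3. Capitals mark the MCAT motif CATTCC on either strand.
Myh7: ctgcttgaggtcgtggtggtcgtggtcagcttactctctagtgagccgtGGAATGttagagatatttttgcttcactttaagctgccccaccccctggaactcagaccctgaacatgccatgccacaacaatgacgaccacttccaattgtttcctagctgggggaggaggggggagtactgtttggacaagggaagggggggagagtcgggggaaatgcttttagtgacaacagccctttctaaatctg
Tnni1: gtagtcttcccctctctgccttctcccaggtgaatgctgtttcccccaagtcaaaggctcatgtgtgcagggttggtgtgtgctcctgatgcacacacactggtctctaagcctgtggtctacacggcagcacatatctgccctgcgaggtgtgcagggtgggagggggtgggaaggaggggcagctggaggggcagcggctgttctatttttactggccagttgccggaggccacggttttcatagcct
Tnnt1: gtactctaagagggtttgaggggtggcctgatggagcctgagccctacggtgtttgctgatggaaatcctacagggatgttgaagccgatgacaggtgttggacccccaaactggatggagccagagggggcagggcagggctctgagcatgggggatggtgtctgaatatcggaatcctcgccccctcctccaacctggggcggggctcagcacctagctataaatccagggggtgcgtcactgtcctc
Myl3: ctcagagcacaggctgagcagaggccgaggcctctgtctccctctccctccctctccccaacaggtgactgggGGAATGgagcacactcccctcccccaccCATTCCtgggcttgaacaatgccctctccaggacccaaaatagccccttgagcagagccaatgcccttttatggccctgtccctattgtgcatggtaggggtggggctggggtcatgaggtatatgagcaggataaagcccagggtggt

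Myh7 held 1 MCAT match, 201 bases before the start, and Myl3 held 2, at 177 and 149 bases. Tnni1 and Tnnt1 held none in these windows. Of 32841 such windows of RefSeq genes, 12.6% held at least 1 match. The E-box CANNTG, searched on both strands and free to overlap the MCAT motif, matched 4 times in Tnni1 and once in each of the other genes, against 66.2% of all windows with a match, and the MEF2 motif matched in none of the 4, against 2.92% of all windows. A match is a run of letters and not a shown binding site.

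The levels of Myh7 that made the classes covered a wide range. At day 3 the Myh7-high arrays had log2 levels of 7.23 (replicate 3), 6.73 (replicate 6) and 2.82 (replicate 1), and the Myh7-low arrays 2.58 (replicate 5), 2.35 (replicate 4) and 2.23 (replicate 2). At day 28 the Myh7-high arrays had 7.86 (replicate 2), 5.07 (replicate 5) and 4.94 (replicate 3), and the Myh7-low arrays 3.21 (replicate 6), 2.49 (replicate 4) and 2.36 (replicate 1). The day 3 border ran between 2.82 and 2.58, so the third Myh7-high array of that day lay closer to the Myh7-low arrays than to the other Myh7-high arrays. For that array alone, the extraction label omits the DNase step given for the others.

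On an intensity scale the Myh7 class means differed 9.23-fold at day 3 and 9.64-fold at day 28. Myh7 was at or under a log2 level of 4 on 7 of the 12 low fat arrays, including all 6 Myh7-low arrays, where values depend on the background correction, so these folds are on the scale of that correction. On the arrays themselves Myh7 stood at percentile 89.1 of all genes on low fat day 28 replicate 2 and at percentile 40.3 on day 3 replicate 2. The high fat arrays ran from 7.96 to 11.35, so all 12 lay above every low fat array. The within-day SD of Myh7 was 2.33 at day 3 and 2.09 at day 28 on low fat (n = 6 each), and 1.23 and 0.52 on high fat (n = 6 each).

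The arrays were alike in general terms. Correlations between pairs of arrays over all probe sets lay between 0.978 and 0.995, and no pair was identical. Median intensity on the linear scale was 6.56 to 6.79 on the Myh7-high and 6.58 to 6.73 on the Myh7-low arrays. Beta-actin, a control read at both ends of its transcript, had a log2 signal at the 3′ end minus the 5′ end below 0 on 3 of 6 Myh7-low arrays (day 3 replicate 2, day 28 replicates 4 and 6), on 0 of 6 Myh7-high arrays and on 1 of 12 high fat arrays (day 28 replicate 6). These 4 arrays had -0.19 to -0.04 and the others 0.10 to 0.37. The same measure for Gapdh, a second control, was -0.01, -0.11, -0.06 and 0.02 on the 4 arrays in the order given. It ran from -0.16 to -0.01 on Myh7-low, -0.11 to -0.06 on Myh7-high and -0.15 to 0.02 on high fat arrays. The 4 arrays were chosen by beta-actin alone. Without the 3 low fat arrays among them, day 28 replicate 1 is the only Myh7-low array of that day. Genes then separate more easily, and no separation can be lost. Class differences without the 3 arrays are given for some genes and lists. A value or count printed alone can also move without them. Myh4, the defining myosin of fast muscle, had log2 levels of 13.18 to 13.41 on the low fat arrays.

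The other slow marker genes followed Myh7 from array to array. Tnni1, the inhibitory subunit of slow troponin, had log2 levels of 5.10, 4.59 and 2.58 on Myh7-high against 2.43, 2.07 and 2.15 on Myh7-low arrays at day 3, each in descending order of Myh7. At day 28 it had 5.89, 3.42 and 3.52 against 3.08, 1.86 and 2.27. Neither day overlapped, although 9 of the 12 levels were at or under 4. The mean of the 2 within-day differences was 1.87 ± 0.49 (log2, SE).

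Tnnt1, the tropomyosin-binding subunit of slow troponin, had 6.71, 5.55 and 3.62 against 2.03, 2.10 and 2.53 at day 3 in the same order of arrays. At day 28 it had 7.10, 5.0 and 4.85 against 3.71, 3.25 and 2.26. The classes did not overlap on either day, and the mean difference was 2.82 ± 0.52 (log2, SE).

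Myl3, the essential light chain of slow and ventricular myosin, had the largest mean difference among all tested genes, 3.99 ± 0.54 (log2, SE). Its levels were 9.07, 8.55 and 5.64 against 4.09, 3.30 and 3.79 at day 3, and 9.29, 7.59 and 7.78 against 5.08, 4.34 and 3.39 at day 28. All 6 Myh7-high levels lay above all 6 Myh7-low levels, even across days. Ranking the arrays by Tnni1, or by the mean of Tnni1, Tnnt1 and Myl3, in place of Myh7 gave the same 2 classes in both days.

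Myl2, the regulatory light chain of slow and ventricular myosin, had 8.66, 8.41 and 7.37 against 4.18, 5.18 and 6.29 at day 3, and 8.89, 7.40 and 7.78 against 6.13, 5.97 and 5.05 at day 28. Tnnc1, the calcium-binding subunit of slow troponin, had 7.26, 5.77 and 4.81 against 3.56, 3.54 and 3.46 at day 3, and 7.39, 5.83 and 5.71 against 4.72, 3.91 and 3.04 at day 28. The mean differences were 2.62 ± 0.39 for Myl2 and 2.42 ± 0.42 for Tnnc1 (log2, SE). Both genes were free of overlap in both days, with Myl2 on day 3 replicate 1 well above the Myh7-low arrays although Myh7 was nearly level there.

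**Figure D1:**
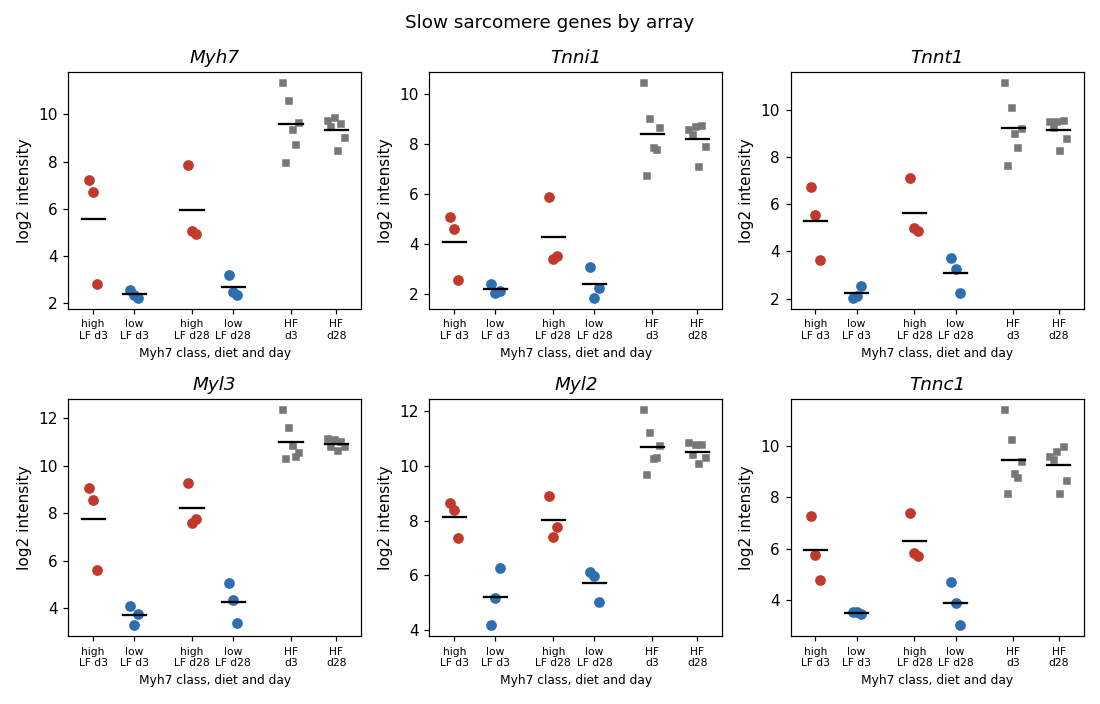
Log2 intensity (vertical axes) of 6 slow sarcomere genes on each low fat array of the Myh7-high (red) and Myh7-low (blue) class by day, and on the high fat arrays (grey), with bars at the means. The Myh7-high arrays lie above the Myh7-low arrays in every low fat panel, and the high fat arrays lie above both classes, with Myh7 from 7.96 to 11.35.

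A gene was called separated when its Myh7-high arrays lay all above, or all below, its Myh7-low arrays in both days. Of 5793 tested genes, 88 were separated higher (1.52%) and 62 lower (1.07%), while 24 lay on opposite sides in the 2 days. At 1 day alone 928 genes were separated at day 3 and 911 at day 28. Only 6 of the 88 and 5 of the 62 differed by over 1 on the log2 scale, and the 6 were all slow sarcomere genes. The median difference over all tested genes was 0.03. Fewer arrays separate more easily, and the 150 genes became 255 without day 3 replicate 4, 234 without day 28 replicate 1, 279 without day 28 replicate 5 and 206 without day 3 replicate 1, the array nearest the border, with all 150 among them each time. Of the slow sarcomere list, 6 of 8 tested members were separated, all higher, with a median difference of 2.52, and since Myh7 chose the classes nothing is read from that count.

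**Figure D2:**
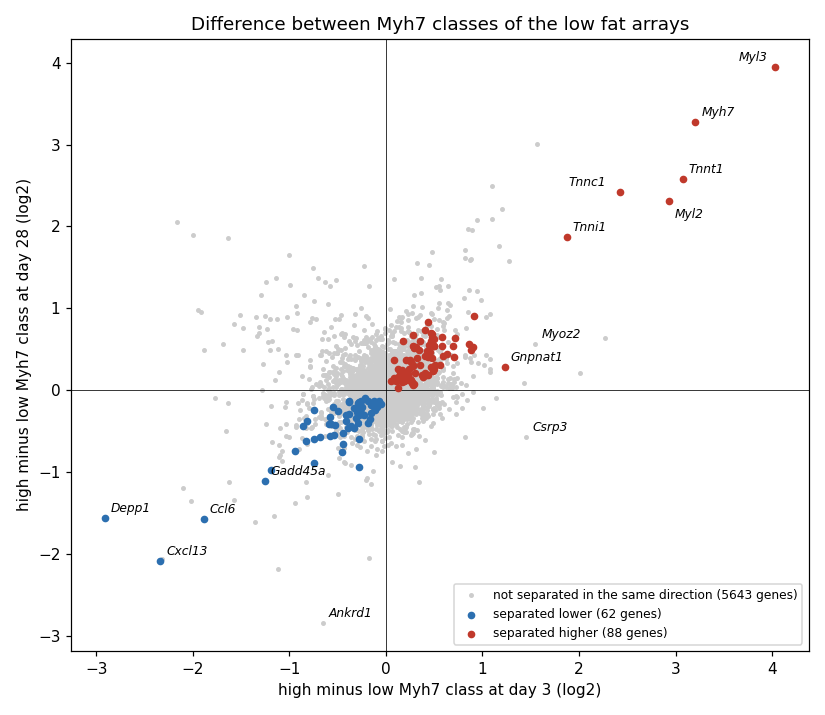
Mean log2 difference between Myh7-high and Myh7-low arrays at day 3 (horizontal) and at day 28 (vertical) for 5793 genes, with the 88 genes separated higher in red and the 62 lower in blue. The 6 slow sarcomere genes stand apart at upper right, from Tnni1 at 1.87 on both axes to Myl3 at 4.03 and 3.95, and Depp1, Cxcl13 and Ccl6 at lower left.

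Beyond the sarcomere, the 6 next largest higher genes differed by 0.67 to 0.91 on the log2 scale. Idh2, the mitochondrial isocitrate dehydrogenase that makes NADPH, had 9.43, 9.44 and 9.40 against 7.72, 8.70 and 9.14 at day 3, and 9.24, 8.69 and 9.11 against 8.44, 8.56 and 8.43 at day 28. Its mean difference was 0.72 ± 0.20 (log2, SE), and its classes came as close as 8.69 and 8.56 at day 28. Lrrc38, an auxiliary subunit of BK potassium channels, differed by 0.71 ± 0.13, with levels of 7.12 to 7.86 on Myh7-high and 6.51 to 7.10 on Myh7-low arrays. Cd200, a membrane glycoprotein whose receptor sits on myeloid cells, differed by 0.69 ± 0.15, with 6.03 to 6.45 against 4.82 to 5.83. These genes had steps of well under those of the slow sarcomere genes.

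Gnpnat1, an acetyltransferase on the route to UDP-N-acetylglucosamine, differed by 1.23 at day 3 and 0.28 at day 28 (log2). 6430571L13Rik differed by 0.91 and 0.90, and Fam78a by 0.71 and 0.63, in the same order of days. Without the 3 low fat arrays of low actin difference these 3 genes had mean differences of 0.83, 0.82 and 0.51.

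Among the other genes of the slow-fibre lists the classes met on 1 of the days. Atp2a2, the slow and cardiac calcium pump SERCA2, had 8.50, 7.86 and 7.15 against 6.81, 6.94 and 7.22 at day 3, and 8.44, 7.61 and 7.85 against 7.19, 6.95 and 6.88 at day 28. It was separated at day 28 only, since day 3 replicate 2 (7.22) stood above day 3 replicate 1 (7.15). The mean difference was 0.91 ± 0.21 (log2, SE). Day 3 replicate 2 is an array of low actin difference. Without the 3 such arrays Atp2a2 had a mean difference of 1.03, with day 28 replicate 1 as the only Myh7-low array of that day.

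Myoz2, the Z-disc protein calsarcin of slow fibres, differed by 1.55 at day 3 and by 0.57 at day 28 with overlap. Myom3, an M-band myomesin, differed by 1.07 and 0.38, and Casq2, a calcium-binding protein of the slow and cardiac calcium store, by 0.88 and 0.35, with overlap at day 28 in both. The 2 days differed in direction for the stretch-responsive Z-disc protein Csrp3 (1.46 at day 3, -0.57 at day 28) and for Ankrd2 (1.0 and -0.21). Ankrd1, a stress-induced ankyrin repeat protein, was lower in Myh7-high arrays by 2.84 at day 28, and overlapped at day 3 with a difference of -0.66. Without the 3 arrays of low actin difference, Ankrd1 had -0.05 at day 3 and -2.01 at day 28, Csrp3 had 1.97 and -0.43, and Casq2 had 0.81 and 0.02. Myoz2 then had 1.82 and 0.38, Myom3 1.25 and 0.51, and Ankrd2 1.22 and -0.10. Of the 5 tested genes of slow calcium handling and stretch, 0 were separated in both days.

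The fast sarcomere genes overlapped between the classes, with values close to 0. Of 11 tested, 0 were separated, and their median difference was 0.01 (-0.01 without the 3 arrays of low actin difference). Of the 11, 9 lay above a log2 level of 12 on all low fat arrays, near the highest level of any gene on any array, 14.32, and whether the array compresses differences at such levels was not tested. Myh4, the fastest myosin heavy chain, differed by -0.03 ± 0.05, Myh1, the IIx myosin, by -0.05 ± 0.08, and the fast troponins Tnni2, Tnnt3 and Tnnc2 by 0.02 ± 0.05, 0.01 ± 0.05 and 0.00 ± 0.05 (log2, SE). Myh2, the myosin of IIa (oxidative fast) fibres, had the largest value of the list, 0.64 ± 0.26, and overlapped in both days. Its low fat levels were 12.45, 12.55 and 11.95 against 10.40, 12.02 and 11.92 at day 3, and 12.54, 11.89 and 12.31 against 11.70, 12.06 and 11.79 at day 28, so that the level of 10.40 on day 3 replicate 5 stood apart from the others.

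The genes lower in Myh7-high arrays were of other kinds. Depp1, a FoxO target that affects autophagy, had 5.94, 6.68 and 6.52 on Myh7-high against 10.52, 8.15 and 9.21 on Myh7-low arrays at day 3, and 5.71, 5.07 and 5.80 against 7.79, 7.01 and 6.46 at day 28. Its mean difference was -2.24 ± 0.40 (log2, SE), with -2.91 at day 3 and -1.56 at day 28. Without the 3 arrays of low actin difference the mean difference was -1.94, with -2.95 at day 3 and -0.94 at day 28.

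Cxcl13, a chemokine that attracts B cells, had 2.52, 2.67 and 2.96 against 6.49, 3.80 and 4.89 at day 3, and 3.07, 4.11 and 2.84 against 7.10, 4.35 and 4.82 at day 28. Ccl6, a chemokine of myeloid cells, had 5.20, 5.46 and 6.19 against 7.69, 7.35 and 7.48 at day 3, and 5.82, 7.83 and 5.75 against 8.20, 7.86 and 8.07 at day 28. The mean differences were -2.21 ± 0.51 and -1.73 ± 0.32 (log2, SE). For both, day 28 replicate 5 was the Myh7-high array closest to the Myh7-low arrays, by 7.83 against 7.86 for Ccl6. Cxcl13 was at or under a log2 level of 4 on 5 Myh7-high arrays and 1 Myh7-low array, where values depend on the background correction.

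Gadd45a, a growth-arrest and stress gene, had 7.09, 6.83 and 7.07 against 8.44, 7.60 and 8.71 at day 3, and 6.75, 6.97 and 6.64 against 7.66, 8.53 and 7.51 at day 28, a mean difference of -1.18 ± 0.20. Galnt15, an enzyme of mucin-type glycosylation, differed by -1.08 ± 0.18, and Lox, the lysyl oxidase that cross-links collagen, by -0.84 ± 0.12. Lgmn, a lysosomal protease, Cpne2, a calcium-dependent membrane-binding protein, Tmem37, the lipid-binding Apod, the kinase Prkca and the secreted chaperone Clu completed the 12 largest, from -0.81 to -0.60. All 12 kept a mean difference below 0 without the 3 arrays of low actin difference, which their separation fixes in advance. Of the 12, 10 were above a log2 level of 4 on all low fat arrays (all but Cxcl13 and Cpne2), against 5 of the 12 largest higher genes.

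**Figure D3:**
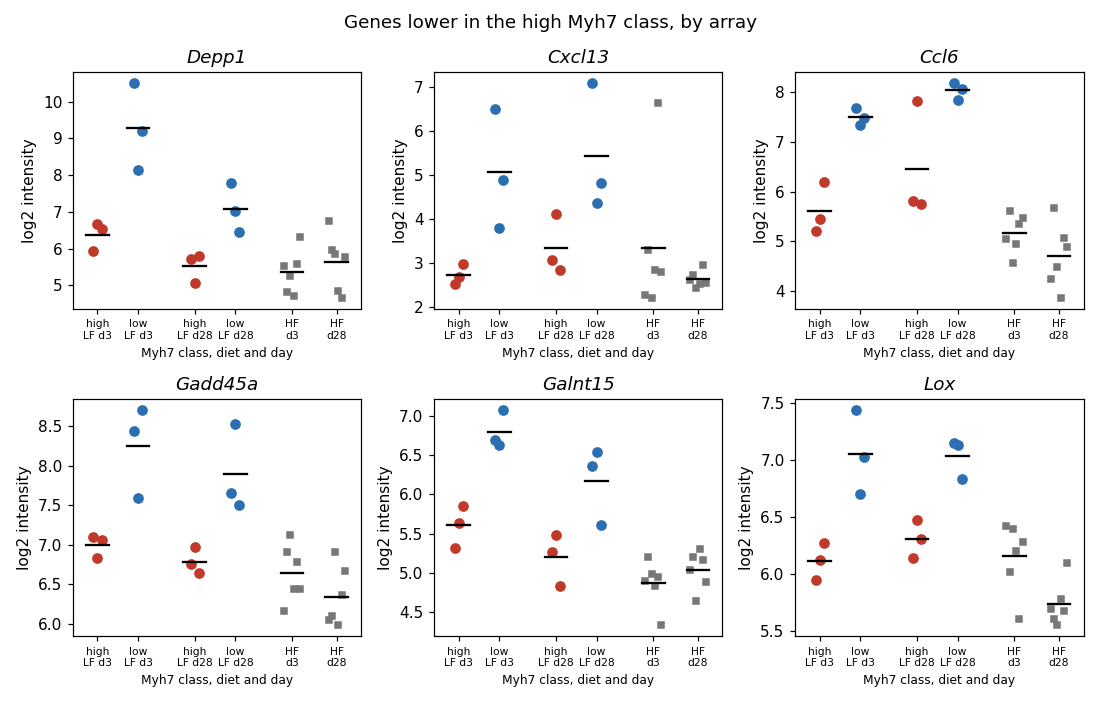
Log2 intensity (vertical axes) of the 6 genes with the largest negative difference, on low fat arrays of the Myh7-high (red) and Myh7-low (blue) class by day and on high fat arrays (grey), with bars at the means. Red points lie below blue points within each day, and Depp1 has its highest level, 10.52, on a Myh7-low array of day 3.

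Gene lists were read by their counts and medians beside the 1.52% and 1.07% of all tested genes and the median of 0.03. In oxidative phosphorylation, 36 of 39 genes had a difference above 0, but the median was 0.07 and 1 gene, the complex I subunit Ndufb8, was separated, higher, by 0.13 ± 0.05. In the tricarboxylic acid cycle 1 of 13, Idh2, was separated, with a list median of 0.05. In fatty acid oxidation 0 of 23 were separated, with a median of -0.03 (2 separated and a median of 0.06 without the 3 arrays of low actin difference), and the mitochondrial carrier Ucp3 had the largest value, -0.47 ± 0.16. In glycolysis and glycogen 2 of 17 were separated, both lower, the phosphorylase kinase subunits Phka1 (-0.29 ± 0.08) and Phkb (-0.16 ± 0.06, and -0.10 without those arrays), and the list median was -0.07. Ldhb, the lactate dehydrogenase subunit of oxidative muscle, had 0.73 ± 0.30 with overlap in both days, and 1.08 without the 3 arrays. Without them 479 genes were separated higher and 208 lower, and of these lists, in the order given, 4, 4, 2 and 5 genes.

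Known regulators of fibre type showed no separated member among 18 tested, with a median of 0.17 (1 separated and a median of 0.09 without the 3 arrays of low actin difference). Their largest value was that of Ppara, a nuclear receptor for fatty acids, 1.42 ± 0.49, which was 0.46 without the 3 arrays of low actin difference. Mef2c, a muscle transcription factor, had 0.68 with all arrays and -0.19 without them, and Ryr1, the calcium release channel of the fast calcium list, had 0.59 and -0.10. Myoglobin, Mb, the oxygen store of oxidative fibres, had 0.37 at day 3 and -0.02 at day 28, and 0 of the 4 tested genes of its list were separated. Of the Hox genes and limb regulators, which keep positional identity, 0 of 7 tested were separated and the median was 0.04. The 7 include Hoxd10, which was at or under a log2 level of 4 on all 12 low fat arrays and so gives no comparison there, and of the other 6, 0 were separated, also with a median of 0.04. A further 27 of that list had too low a level to be tested.

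Of the markers of other cell types, those of macrophages differed most by class. Their difference was below 0 for 10 of 10 tested genes, with a median of -0.46, and 1, the scavenger receptor Cd163, was separated (-0.54 ± 0.13). The mean level of the 10 ran from 6.53 to 6.86 on Myh7-high and from 6.97 to 7.72 on Myh7-low arrays at day 3, without overlap. At day 28 it ran from 6.77 to 7.74 and from 7.07 to 7.57, with overlap. The part of macrophages in the lower Ccl6 and Cxcl13 was not tested. The 3 listed markers Cd68, Cd14 and Aif1 had too low a level to be tested.

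The mean level of the adipocyte markers overlapped between the classes in both days. It was 5.77 to 8.24 on Myh7-high and 6.98 to 8.75 on Myh7-low arrays at day 3, and 8.89 to 9.28 and 7.51 to 9.01 at day 28. Of 10 tested, 0 were separated in both days, and the median was -0.13 with all arrays and 0.23 without the 3 arrays of low actin difference. The days differed in direction for Cidec (-1.69 at day 3, 0.56 at day 28), Cidea (-1.95 and 0.98) and Pparg (-0.58 and 1.27). Pparg was separated higher at day 28. Cidea was at or under a log2 level of 4 on 3 low fat arrays and Pparg on 4. With the adipocyte mean as a covariate 200 genes were separated, with 130 of the 150 among them. That fit kept the class term, and Myh7 chose the classes, so the count does not test the part of fat content. Fatty acid synthesis had 0 of 10 separated and a median of -0.04 (0.23 without those arrays).

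With all arrays, the remaining cell types gave few separated genes. Of 10 endothelial genes 0 were separated, of 7 smooth muscle and pericyte genes 1 (the adhesion molecule Mcam, 0.64 ± 0.17, and 0.96 without the 3 arrays of low actin difference), and of 11 fibroblast and tendon genes 1 (the matrix protein Thbs4, -0.23 ± 0.08). The fibroblast and tendon median was 0.12 with all arrays and -0.22 without the 3 arrays of low actin difference. Satellite cell, neuromuscular junction and erythroid lists had 3, 2 and 1 tested genes, 0 of them separated, and no lymphocyte or neutrophil marker had a level high enough to be tested.

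Genes that respond to stress hormones mostly had lower means in the Myh7-high arrays. Of 11 tested glucocorticoid targets, 10 had a difference below 0, the median was -0.36, and 1, Tsc22d3, which encodes the glucocorticoid-induced leucine zipper, was separated (-0.60 ± 0.13). Mt1, a metallothionein, had 6.67, 7.01 and 7.03 against 9.37, 7.23 and 10.43 at day 3, and 7.64, 9.57 and 7.36 against 9.00, 10.64 and 8.48 at day 28. Its mean difference was -1.65 ± 0.57 with overlap at day 28, and -0.84 without the 3 arrays of low actin difference.

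All 6 tested genes of protein breakdown had a difference below 0, with a median of -0.29, although none was separated in both days on its own. Their mean level was 9.27 to 9.42 on Myh7-high against 9.48 to 9.91 on Myh7-low arrays at day 3, and 9.14 to 9.40 against 9.45 to 9.54 at day 28. The ubiquitin ligase Fbxo32 had -0.66 ± 0.30, the autophagy gene Gabarapl1 -0.51 ± 0.13 and the transcription factor Foxo1 -0.41 ± 0.25, and without the 3 arrays of low actin difference they had -1.0, -0.28 and -0.28. Circadian clock genes (0 of 10 separated, median 0.07) and immediate early genes (0 of 8, median 0.12) showed no common direction. Atf3, a stress-induced transcription factor, had -1.11 ± 0.82, and its level of 9.62 on day 28 replicate 4 was far above the rest (3.14 to 4.95). Without the arrays of low actin difference, that array among them, it had 0.09.

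**Figure D4:**
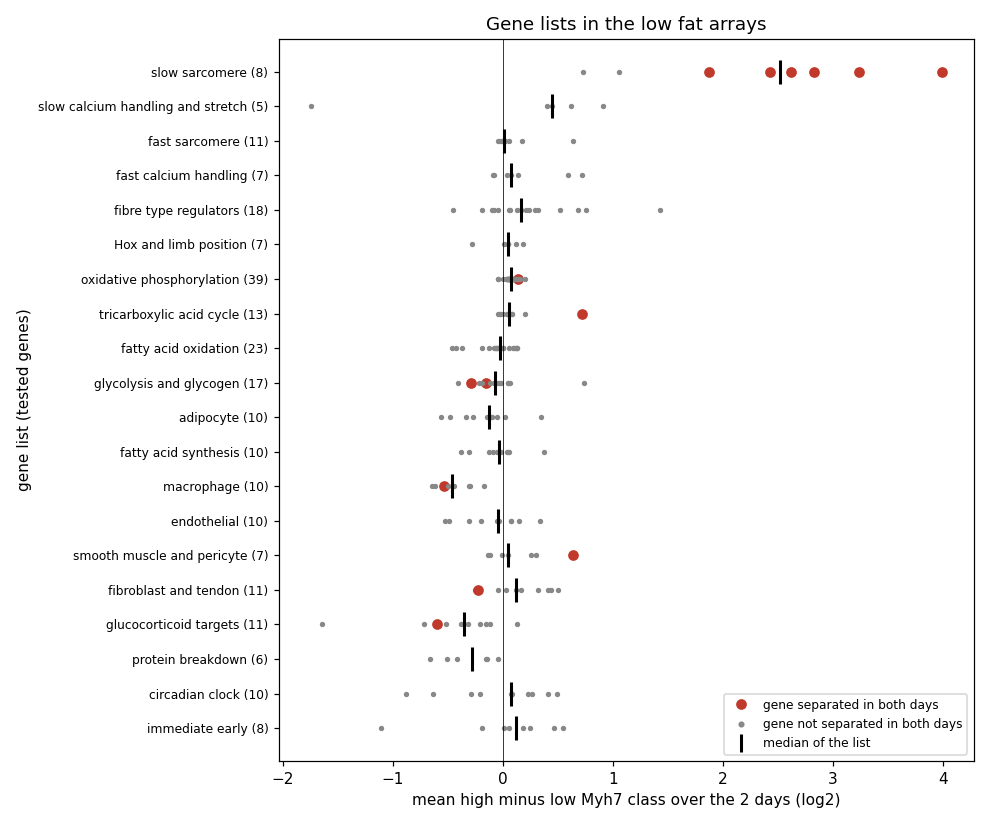
Mean log2 difference between Myh7-high and Myh7-low arrays over both days (horizontal) for each tested gene of 20 lists with at least 5 tested genes, with red points for genes separated in both days and black ticks at list medians. The slow sarcomere median lies at 2.52, the macrophage median at -0.46, and the fast sarcomere median at 0.01.

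Whether the same genes follow Myh7 in muscle that the ranking did not use was tested on the 12 high fat arrays, by the slope of each gene on Myh7 within day. Of 5792 genes, 11 had a slope above 0 at an adjusted p under 0.05 (0.19%) and 0 had one below 0, by limma with Benjamini-Hochberg adjustment. At an unadjusted p under 0.05 there were 238 in either direction. Of the 87 other genes separated higher on low fat, 5 were called, and of the 62 separated lower, 0. The 5 were Tnni1, Tnnt1, Myl3, Myl2 and Tnnc1. With a replicate block 3 genes were called, Tnnc1, Tnni1 and Tnnt1, and with the 3 highest against the 3 lowest arrays of each day 0 were (252 at an unadjusted p under 0.05).

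The troponin genes rose with Myh7 nearly step for step on high fat. The slopes, in log2 per log2 unit of Myh7, were 1.0 ± 0.04 for Tnnt1 (SE, limma adjusted p = 1.1e-07), 1.03 ± 0.08 for Tnni1 (adjusted p = 3.6e-05) and 0.99 ± 0.08 for Tnnc1 (adjusted p = 6.7e-05). The light chains had 0.65 ± 0.05 for Myl2 (adjusted p = 7.7e-05) and 0.59 ± 0.07 for Myl3 (adjusted p = 0.0045). On low fat, described without a test, the slopes were 0.80 for Tnnt1, 0.61 for Tnni1, 0.66 for Tnnc1, 0.64 for Myl2 and 1.05 for Myl3. The differences between the slopes of the 2 diets were not tested, and on low fat 9 levels of Tnni1, 7 of Tnnt1 and 5 of Tnnc1 were at or under a log2 level of 4, of 12 each.

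The further genes called on high fat included 2 more members of the slow-fibre lists. Atp2a2 rose with a slope of 0.75 ± 0.05 (adjusted p = 3.6e-05), against 0.27 on low fat, and Myom3 with 0.57 ± 0.10 (adjusted p = 0.040). The other 4 called genes are named after their values were seen: Fgf1, a fibroblast growth factor (0.43 ± 0.06, adjusted p = 0.0076), Fzd9, a Wnt receptor (0.60 ± 0.09, adjusted p = 0.018), Niban1 (0.51 ± 0.08, adjusted p = 0.036) and Hspb7, a small heat shock protein of heart and muscle (0.55 ± 0.09, adjusted p = 0.036). On low fat Fgf1 had 4.21 to 5.13, with overlap in both days, while Fzd9 was separated at day 3 (1.08) and overlapped at day 28 (0.22). Fzd9 was at or under a log2 level of 4 on 8 low fat arrays, with all 6 Myh7-low arrays among them. Without the 3 low fat arrays of low actin difference the mean difference was 0.50 for Fgf1 (0.18 with all arrays) and 0.69 for Fzd9 (0.65). At day 28 these values rest on a single Myh7-low array. Myoz2 had a slope of 0.36 ± 0.07 and an adjusted p of 0.080.

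The non-sarcomeric genes separated on low fat did not pass the test on high fat. Idh2 had a slope of 0.15 ± 0.05 (adjusted p = 0.98), with a level of 9.87 to 10.53 on high fat against 7.72 to 9.44 on low fat. Depp1 had 0.23 ± 0.20, Cxcl13 -0.63 ± 0.32 and Ccl6 -0.11 ± 0.16, with adjusted p of 0.98 each. Slopes were above 0 for 59 of the 87 genes separated higher, below 0 for 36 of the 62 separated lower, and above 0 for 2803 of all 5792 tested genes.

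The count on high fat rests in part on 2 arrays: 5 genes were called without day 3 replicate 1 (Atp2a2, Myl2, Tnnc1, Tnni1 and Tnnt1) and 6 without day 3 replicate 2. Within day 3 alone 6 genes were called and within day 28 alone 0, where Myh7 varied least, with 180 genes at an unadjusted p under 0.05.

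**Figure D5:**
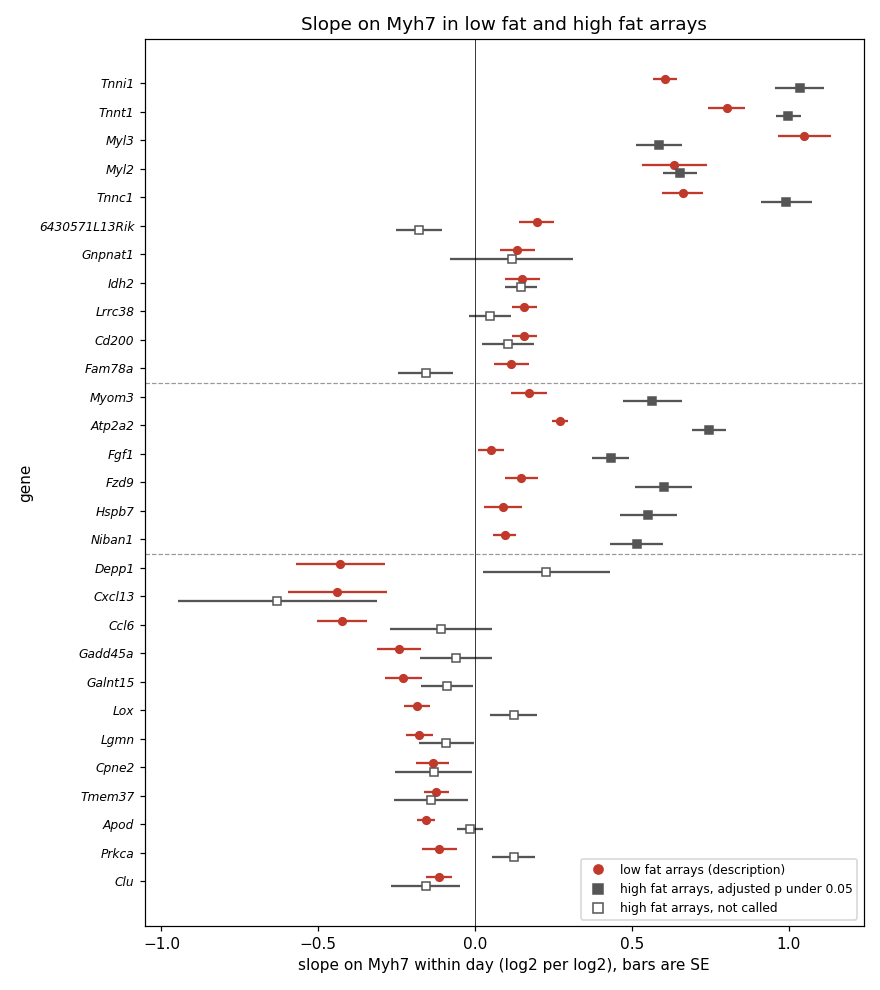
Slope of each gene on Myh7 within day (horizontal, log2 per log2 unit, bars are SE) on low fat arrays (red circles, description) and on high fat arrays (squares, filled where the adjusted p was under 0.05). The upper block holds the genes separated higher on low fat, the middle block the further genes called on high fat, and the lower block the genes separated lower, of which none was called.

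Each day gave 3 arrays to each class, so the day comparison does not rest on the split. From day 3 to day 28 on low fat, limma called 20 of 5793 genes (0.345%), 10 higher and 10 lower, with 964 at an unadjusted p under 0.05. Fitted to the 12 low fat arrays alone, or with a replicate block, 0 genes were called (862 and 717 unadjusted), and with no filter on low levels 3 were. Adipocyte markers had higher levels at day 28, where their mean ran from 7.51 to 9.28 over the low fat arrays against 5.77 to 8.75 at day 3, and 0 of 10 were called. Cidea, a lipid droplet protein, had 2.79 ± 0.85 (adjusted p = 0.12) and Pparg, the adipocyte nuclear receptor, 1.13 ± 0.40 (adjusted p = 0.17). Their part in the day calls was not tested. No slow sarcomere gene was among them: Myh7 differed by 0.33 ± 0.92 (log2, SE, adjusted p = 0.89) and Tnnt1 by 0.60 ± 0.79 (adjusted p = 0.75). The apoptotic protease Casp8 rose by 1.28 ± 0.27 (adjusted p = 0.048), the cell cycle regulator Rgcc by 0.78 ± 0.13 (adjusted p = 0.020), and the collagen chaperone Serpinh1 by 0.63 ± 0.14 (adjusted p = 0.048). The long noncoding RNA Snhg8 and the sterol enzyme Ebp also rose, by 0.71 ± 0.15 and 0.64 ± 0.14.

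The amino acid transporter Slc43a1 fell by 1.20 ± 0.25, the cardiac actin Actc1 by 1.06 ± 0.23, the nicotinamide riboside kinase Nmrk2 by 1.06 ± 0.22, the PI3-kinase inhibitor Pik3ip1 by 0.84 ± 0.18 and Tcp11l2 by 0.64 ± 0.11 from day 3 to day 28. Tcp11l2 was also separated lower in Myh7-high arrays on both days, by -0.42 and -0.37. These day calls depend on single arrays: without day 3 replicate 6, day 28 replicate 2 or day 28 replicate 5 of the low fat mice 0 genes were called, without day 28 replicate 1 there were 47, and without the 4 arrays of low actin difference there were 2. Counts of 3, 5, 7, 8, 10 and 37 followed from leaving out day 3 replicate 4, day 3 replicate 3, day 28 replicate 4, day 28 replicate 6, day 3 replicate 1 and day 3 replicate 2.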

How the data were processed

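Values are deposited as linear intensity, 1 for each probe set on each array, made by the authors with GCRMA per the submitters' processing notes. Its version and the genome build are not given in the sources used here. Log2 was taken with no offset and no further normalization. Of 16361 probe sets, 14771 carried 1 gene symbol in the platform annotation, 589 several, 937 were not listed and 64 were controls. The probe set of highest mean was kept for each of 14754 genes, and 5793 genes with a log2 level above 4 on at least 6 of 24 arrays were tested.

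Low fat class differences are means of the 2 within-day differences, with the SE of limma 3.58.1 (R 4.3.3, day and class), and no p. Slopes on day-centred Myh7 were fitted by limma to the 12 high fat arrays with day (9 residual degrees of freedom), and day effects to all 24 arrays in 4 groups (20 residual degrees of freedom), two-sided, with Benjamini-Hochberg adjustment over all tested genes. The scripts were tested on simulated data. The number of arrays limits the precision. Per the labels each array is a separate mouse.

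Members and gene lists (26 lists of 406 genes, 336 with a probe set of their own, 254 tested) were chosen with earlier results of these data known. Named genes were the 4 markers, the 12 largest separated in each direction, tested genes of the slow and fast lists, up to 3 members with the largest difference and separated members of other lists, and the 5 largest called in each direction on high fat and for day. Alternatives covered quantile normalization, filters, probe set choice, ranking gene, adipocyte and replicate terms, array weights and left-out arrays.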

Additional observations from a re-analysis of the deposited data

Results flagged for a closer look

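All 120 named genes were screened in 4 groups of 6 arrays, and 44 of 480 sets (9.17%) held an array set apart by a gap over the 95% critical value of Dixon's test, where chance alone sets apart about 1 in 20. The arrays most often set apart were high fat day 3 replicate 5 (9 genes), low fat day 3 replicate 5 (7), high fat day 28 replicate 6 (5) and low fat day 3 replicate 2 (4), and the last 2 had a low actin difference. All values are log2 levels, with the range of the other 5 arrays of the group in brackets.

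On low fat day 3, the Myh7-low replicate 5 had Myh2 at 10.4 (11.92 to 12.55), Actc1 at 11.61 (12.08 to 12.34), Bhlhe40 at 8.3 (9.04 to 9.15), Prkca at 7.53 (6.00 to 6.51), Myl4 at 3.47 (2.55 to 2.88), Musk at 6.27 (4.45 to 4.90) and Arntl at 6.54 (5.23 to 5.49). The Myh7-low replicate 2 had Jph2 at 7.33 (8.89 to 9.21), Mef2c at 9.27 (10.79 to 10.91), Hoxc6 at 3.4 (3.98 to 4.25) and Hoxd10 at 2.16 (1.65 to 1.82). The Myh7-high replicate 1 had Mylpf at 13.84 (13.74 to 13.78).

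On low fat day 28, the Myh7-low replicate 4 had Atf3 at 9.62 (3.59 to 4.95), Xirp1 at 10.71 (8.34 to 8.92) and Hoxc9 at 4.57 (5.06 to 5.16). The Myh7-low replicates 6 and 1 had Tnmd at 6.25 (7.08 to 7.57) and Idh3g at 10.93 (11.05 to 11.11). The Myh7-high replicate 3 had Tnnt3 at 13.93 (13.98 to 14.01) and Mybpc2 at 13.06 (12.86 to 12.93).

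On high fat day 3, replicate 5 had Cxcl13 at 6.64 (2.20 to 3.30), Clu at 9.95 (8.55 to 9.04), Myh1 at 12.52 (12.23 to 12.34), Cidea at 5.92 (2.18 to 3.43), Pparg at 5.24 (2.98 to 3.52), Comp at 4.54 (5.79 to 6.22), Fbxo32 at 7.17 (8.86 to 9.46), Nr4a1 at 8.91 (9.60 to 9.99) and Nmrk2 at 9.68 (10.55 to 10.87). Replicate 6 had Ckmt2 at 12.3 (12.41 to 12.45), Alas2 at 5.86 (3.34 to 4.06) and Snhg8 at 6.93 (7.40 to 7.62). Replicates 1, 2 and 4 had Fam78a at 4.39 (5.12 to 5.44), Slc43a1 at 3.84 (4.69 to 5.06) and Vwf at 7.45 (6.61 to 6.88).

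On high fat day 28, replicate 6 had Jph2 at 5.93 (8.11 to 8.33), Ryr1 at 7.19 (9.27 to 9.65), Mef2c at 8.68 (10.58 to 11.03), Ppara at 2.33 (4.63 to 5.91) and Hoxc6 at 2.83 (3.18 to 3.31). Replicate 3 had Prkca at 5.97 (5.62 to 5.72) and Actc1 at 11.79 (10.31 to 10.84), and replicates 5, 2 and 4 had Scd1 at 9.39 (7.88 to 8.42), C1qb at 7.56 (6.58 to 6.91) and Cebpd at 6.82 (7.74 to 8.23).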

How the results depend on the processing

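No separated or called gene that was refitted changed direction. Without the arrays of low actin difference, the class difference turned in sign for 11 of 120 named genes, and the median turned for 6 of 25 lists. None of the 11 was separated, but a separated gene cannot turn when arrays are left out, so nothing is read from that. The split of the low fat arrays kept 6 separated slow sarcomere genes under each alternative, and 8 without day 28 replicate 5. The classes were the same each time and Myh7 chose them, so nothing is read from these counts. With no filter on low levels 127 genes were separated lower. Leaving out 1 array gave 105 to 155 genes higher and 71 to 124 lower, and leaving out the 3 low fat arrays of low actin difference (chosen after seeing the data) gave 479 and 208, since fewer arrays separate more easily, and all 150 genes remained. Under quantile normalization 116 of the 150 remained.

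On high fat, genes called higher numbered 3 with a replicate block (Tnnc1, Tnni1 and Tnnt1), 19 with array weights (5 lower), 0 for the 3 highest against the 3 lowest arrays of each day (252 at an unadjusted limma p under 0.05), and 5 to 11 with 1 array left out. Within day 3 there were 6 and within day 28 0, both chosen after seeing the data. For day, 17 rose and 23 fell under quantile normalization, 2 and 1 with no filter, 0 and 0 with only low fat arrays in limma (862 unadjusted), 0 and 0 with the replicate block (717 unadjusted), 0 and 2 without the 4 arrays of low actin difference, and 0 to 26 and 0 to 21 with 1 array left out. Same-numbered mice of the 2 days, whose deviations from their group means correlated at -0.38 to 0.29, share only a number, so the block is no pairing of samples. The number of arrays and levels near background limit all of these.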
